A study of Mus musculus with 8 samples.

Results

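The transcripts described here are 9 markers of cholangiocytes and liver progenitor cells: Epcam, Sox9, Sox4, Cd24a, Prom1, Cldn4, Cldn7, Cdh1 and Anxa2. They were chosen by gene symbol, and each symbol matched 1 of the 55536 gene entries of the count table. All 8 samples were livers of wild-type C57BL/6 mice that were 2 months old, lean and fasted overnight, and every mouse had received 0.1 OD of an adenovirus 1 week earlier. The control group (n = 4) carried a hairpin against lacZ, a bacterial gene that mice lack, and the knockdown group (n = 4) a hairpin against Eif4ebp3, which encodes a repressor of the cap-binding protein eIF4E. There was no group without virus, and neither the route of injection nor the promoter of the hairpin is stated in the labels.

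Cholangiocytes line the bile ducts and are a small minority of liver cells. They hold together through E-cadherin and claudins, carry EpCAM on their surface and depend on SOX9 and SOX4. SOX9 acts below Notch signalling when ducts form in the embryo. After injury, hepatocytes and duct cells can switch on part of this set, and CD24, prominin 1 and EpCAM are used to sort such progenitor-like cells. Several of these genes are also active in other cells, CD24 in lymphocytes and annexin A2 in macrophages, endothelium and fibroblasts.

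Of the 9 markers, 8 were higher in the knockdown livers and 1, Sox9, did not pass the test (edgeR's quasi-likelihood test, Benjamini-Hochberg adjusted over 15375 genes). Of all genes tested, 29.5% were higher and 57.2% changed in either direction. Groups did not overlap for 7 markers, all higher in knockdown. Of all genes tested, 52.1% showed no overlap in either direction and 27.4% lay above control without overlap. The median log2 fold change of the 9 was 2.53, against 0.00 over all genes tested, and 7 rose by at least 2-fold, as did 15.4% of all genes. Prom1, Cldn4 and Cldn7 met the count minimum of the filter in all knockdown samples but not in all controls, so their entry into the test depended on the group in which they were high. Of the 6 that met it in both groups 5 were higher, as were 27.4% of the 13417 such genes. In bulk liver, more cells of a type and more RNA per cell cannot be told apart.

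**Figure D1:**
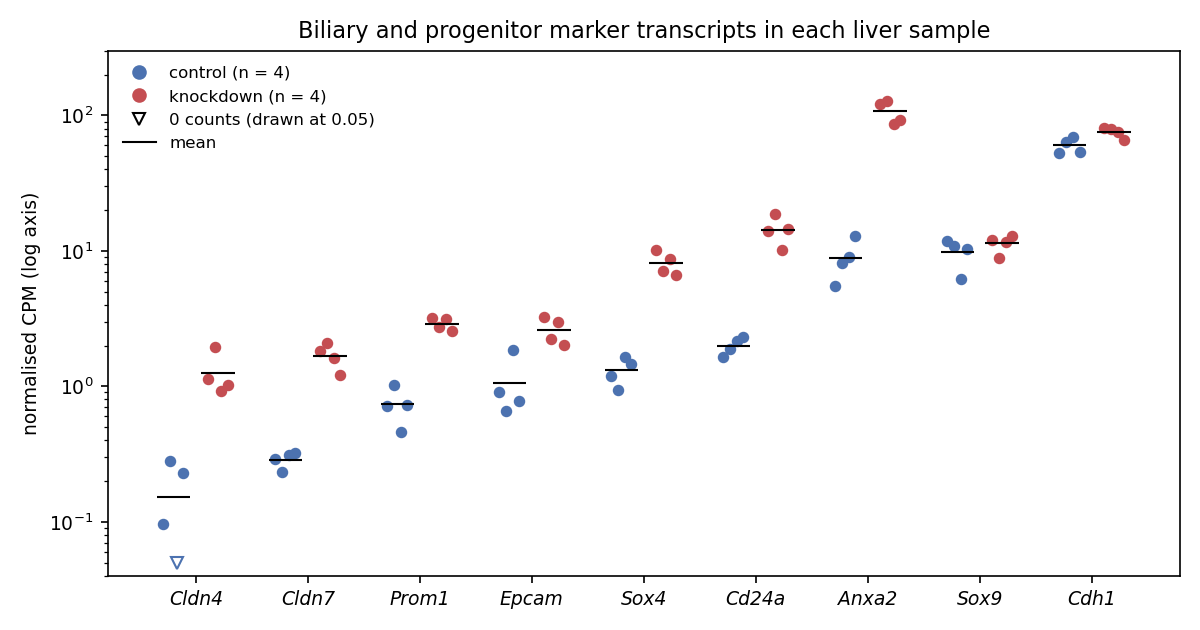
Normalised CPM (counts scaled to library size adjusted by TMM factors, log axis) of the 9 markers in each of 4 control (blue) and 4 knockdown (red) livers. The group mean is a black line and a sample without counts an open triangle. Anxa2 moved from between 5.52 and 12.8 CPM to between 86.6 and 127 CPM, while the points of Sox9 and Cdh1 overlap between groups.

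Promoters were available for 6 of the 9 markers (RefSeq, GRCm38.p6, 250 bases before to 50 after an annotated start). Those of Anxa2, which rose most, and of Epcam and its junction partners Cldn4 and Cldn7 are shown, 5′ to 3′ on the gene's strand. Capitals mark CACCTG (an E-box bound by SNAI and ZEB repressors), TGGGAA (RBPJ, the DNA-binding factor of Notch signalling), TGACTCA (AP-1) and TATAAA, read on either strand, so that the E-box also appears as CAGGTG, the RBPJ letters as TTCCCA and the AP-1 letters as TGAGTCA. The regions are chr9:69453433-69453732 (+) for Anxa2, chr17:87635729-87636028 (+) for Epcam, chr5:134946885-134947184 (-) for Cldn4 and chr11:69965171-69965470 (+) for the second of the Cldn7 starts.
Epcam: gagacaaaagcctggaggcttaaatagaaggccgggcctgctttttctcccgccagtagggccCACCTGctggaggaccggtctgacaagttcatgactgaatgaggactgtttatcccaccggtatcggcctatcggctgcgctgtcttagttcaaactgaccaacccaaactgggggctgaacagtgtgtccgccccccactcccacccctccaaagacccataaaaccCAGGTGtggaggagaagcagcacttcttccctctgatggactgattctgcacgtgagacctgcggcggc
Cldn4: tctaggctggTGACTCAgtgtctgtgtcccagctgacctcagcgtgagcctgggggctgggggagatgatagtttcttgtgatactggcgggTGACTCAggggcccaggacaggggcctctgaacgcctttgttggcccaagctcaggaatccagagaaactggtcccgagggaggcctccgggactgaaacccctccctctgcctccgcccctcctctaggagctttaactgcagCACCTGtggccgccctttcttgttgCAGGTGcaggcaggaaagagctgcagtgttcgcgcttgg
Cldn7: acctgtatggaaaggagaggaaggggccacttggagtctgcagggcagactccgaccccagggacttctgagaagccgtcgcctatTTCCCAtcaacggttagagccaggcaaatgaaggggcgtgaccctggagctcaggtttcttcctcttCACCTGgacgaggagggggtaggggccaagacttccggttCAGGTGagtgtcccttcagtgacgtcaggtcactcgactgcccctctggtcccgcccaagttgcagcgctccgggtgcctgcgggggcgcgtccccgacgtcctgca
Anxa2: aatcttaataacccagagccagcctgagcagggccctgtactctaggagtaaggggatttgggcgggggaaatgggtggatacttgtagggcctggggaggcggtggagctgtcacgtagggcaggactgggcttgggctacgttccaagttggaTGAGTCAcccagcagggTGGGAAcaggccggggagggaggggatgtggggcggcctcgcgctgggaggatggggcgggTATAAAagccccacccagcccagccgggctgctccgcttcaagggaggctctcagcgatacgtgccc

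The E-box occurred in Epcam at -187 and -19, in Cldn4 at -14 and +12, in Cldn7 at -97 and -57 and in the second Prom1 start at -222, with positions counted from the annotated start. It was found in 20.2% of the 32851 promoters of the same length. The AP-1 motif stood in Anxa2 at -95, in Cldn4 at -240 and -158 and in the second Prom1 start at -88, against 5.2% of all promoters. RBPJ letters were present in Anxa2, Sox4, the second Cldn7 start and the second Prom1 start, and in 25.6% of all promoters. TATAAA occurred in Anxa2 at -17 and in 13.6% of all promoters, and AACAAT, a SOX motif, in no member promoter and in 10.7% of all. The other Cldn7 and Prom1 starts held none of these motifs, like 44% of all promoters. Sox9, Cd24a and Cdh1 had no entry. These matches describe letters in short windows and are not binding sites.

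Surface adhesion molecules and sorting markers were low in control liver and higher in the knockdown. Epcam (ENSMUSG00000045394, chromosome 17, 87635979 to 87651129, mm10), a homophilic adhesion molecule of simple epithelia, held 0.913, 0.654, 1.85 and 0.777 CPM in control replicates 1 to 4 and 3.25, 2.24, 2.99 and 2.00 CPM in knockdown replicates 1 to 4. Every knockdown sample lay above every control, but the lowest of them exceeded control replicate 3 by only 1.08-fold. Epcam rose by 1.32 ± 0.32 (log2, SE; 2.50-fold; adjusted p = 0.00489, edgeR), from 86 to 345 counts over 4 samples each. Control replicate 3 also held the highest control levels of Krt19 (1.18 CPM, other controls 0.0914 to 0.467) and of the mesothelial markers Msln (1.80 CPM, others 0 to 0.192) and Upk3b (1.49 CPM, others 0 to 0.0457). Without that sample the log2 fold change of Epcam was 1.73. Among the knockdown samples replicate 1 was highest for Epcam, Msln (1.01 CPM) and Upk3b (1.07 CPM), and also for Sox4, Prom1 and Cdh1. Krt19 was highest in knockdown replicate 3 (1.27 CPM, against 1.17 CPM in replicate 1). Whether mesothelium added to the Epcam counts was not tested. Without knockdown replicate 1 the log2 fold change of Epcam was 1.20 (adjusted p = 0.0168, edgeR).

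Cd24a (ENSMUSG00000047139, chromosome 10, 43578284 to 43584265) encodes a small glycosyl-anchored surface sialoprotein of immature and regenerating epithelium and of lymphocytes. Its levels were 1.63, 1.87, 2.16 and 2.33 CPM in the controls, against 14.0, 18.8, 10.1 and 14.6 CPM in the knockdown samples. The lowest knockdown sample was 4.35-fold above the highest control. The rise was 2.84 ± 0.21 (log2, SE; 7.18-fold), with an adjusted p of 1.63e-06 from edgeR. Of the genes tested, 1.37% had a larger log2 fold change.

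Prom1 (ENSMUSG00000029086, chromosome 5, 43993620 to 44102032) encodes prominin 1 (CD133), a pentaspan protein of membrane protrusions. It held 0.720, 1.03, 0.463 and 0.731 CPM in the controls, against 3.22, 2.73, 3.13 and 2.54 CPM in the knockdown samples. The knockdown samples lay close together, with a coefficient of variation of 11.1%, and all stood above the controls. Prom1 rose by 1.97 ± 0.24 (log2, SE), 3.91-fold, with an adjusted p of 5.53e-05 from edgeR. Its exons share 424 bases with Gm16401 on the other strand, which held at most 1 count in a sample.

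The claudins seal the tight junction between epithelial cells. Cldn4 (ENSMUSG00000047501, chromosome 5, 134945119 to 134946934), a claudin of tight, ion-restrictive epithelia, held 2, 6, 0 and 5 counts in the controls and 36, 67, 27 and 40 in the knockdown samples, or 0.0961, 0.280, 0 and 0.228 against 1.14, 1.95, 0.929 and 1.03 CPM. It was near the detection limit in control liver and present in each knockdown sample. The log2 fold change was 2.99 ± 0.53 (SE; adjusted p = 0.000649, edgeR), and its 95% interval, 1.82 to 4.16, was the widest of the 9. Cldn7 (ENSMUSG00000018569, chromosome 11, 69964779 to 69967885), a claudin that also binds EpCAM along the lateral membrane, held 0.288, 0.234, 0.309 and 0.320 CPM in the controls, against 1.83, 2.09, 1.62 and 1.21 CPM in the knockdown samples. The groups were separate by 3.77-fold between the nearest samples. Cldn7 rose by 2.53 ± 0.29 (log2, SE; adjusted p = 3.02e-05, edgeR), from 24 to 224 counts.

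Cdh1 (ENSMUSG00000000303, chromosome 8, 106603351 to 106670246), E-cadherin of the adherens junction, is made by duct cells and periportal hepatocytes and was the most abundant marker per length in the controls. It held 53.1, 63.6, 69.7 and 54.1 CPM there and 81.2, 79.7, 74.9 and 66.1 CPM in the knockdown samples. Knockdown replicate 4 lay below control replicate 3, so the groups overlapped. The rise was 0.33 ± 0.10 (log2, SE), 1.26-fold (adjusted p = 0.0194, edgeR). It missed the threshold without control replicate 1 (0.27, adjusted p = 0.0631), knockdown replicate 1 (0.29, adjusted p = 0.0577) or knockdown replicate 2 (0.30, adjusted p = 0.058). Over all alternatives its adjusted p ranged from 4.52e-05 to 0.0631.

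Of the SOX factors, Sox4 rose and Sox9 did not pass the test. Sox9 (ENSMUSG00000000567, chromosome 11, 112782224 to 112787760), the transcription factor by which duct cells are most often identified, held 11.9, 10.9, 6.18 and 10.3 CPM in the controls, against 12.1, 8.90, 11.7 and 12.9 CPM in the knockdown samples. The groups overlapped, and control replicate 3 was the lowest of the 8. The log2 difference of 0.21 ± 0.19 (SE) did not pass (adjusted p = 0.378, edgeR), and its 95% interval ran from -0.22 to 0.63, with an upper end of 1.55-fold. Sox4 (ENSMUSG00000076431, chromosome 13, 28948919 to 28953713), which acts with Sox9 in duct formation, held 1.20, 0.935, 1.65 and 1.46 CPM in the controls, against 10.2, 7.15, 8.67 and 6.59 CPM in the knockdown samples. Each knockdown sample stood clear of each control. Sox4 rose by 2.63 ± 0.22 (log2, SE), 6.21-fold, with an adjusted p of 3.47e-06 from edgeR. Of its 4795 exon bases 2616 overlap Gm26735 on the other strand, whose mean was 0.535 CPM in control and 1.44 CPM in knockdown livers, so reads of these genes cannot be told apart where strand was not used.

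Anxa2 (ENSMUSG00000032231, chromosome 9, 69453620 to 69491795) encodes a calcium-dependent protein that binds phospholipid and actin at the cell cortex. It held 5.52, 8.09, 9.01 and 12.8 CPM in the controls, against 121, 127, 86.6 and 92.9 CPM in the knockdown samples. No sample came near the other group: the lowest knockdown sample was 6.77-fold above control replicate 4, the highest control. The rise of 3.59 ± 0.23 (log2, SE), 12.1-fold, was the largest of the 9 markers (adjusted p = 8.48e-07, edgeR), and 0.631% of genes tested had a larger log2 fold change. Its exons share 98 bases with Gm16144 on the other strand, which held at most 9 counts in a sample.

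**Figure D2:**
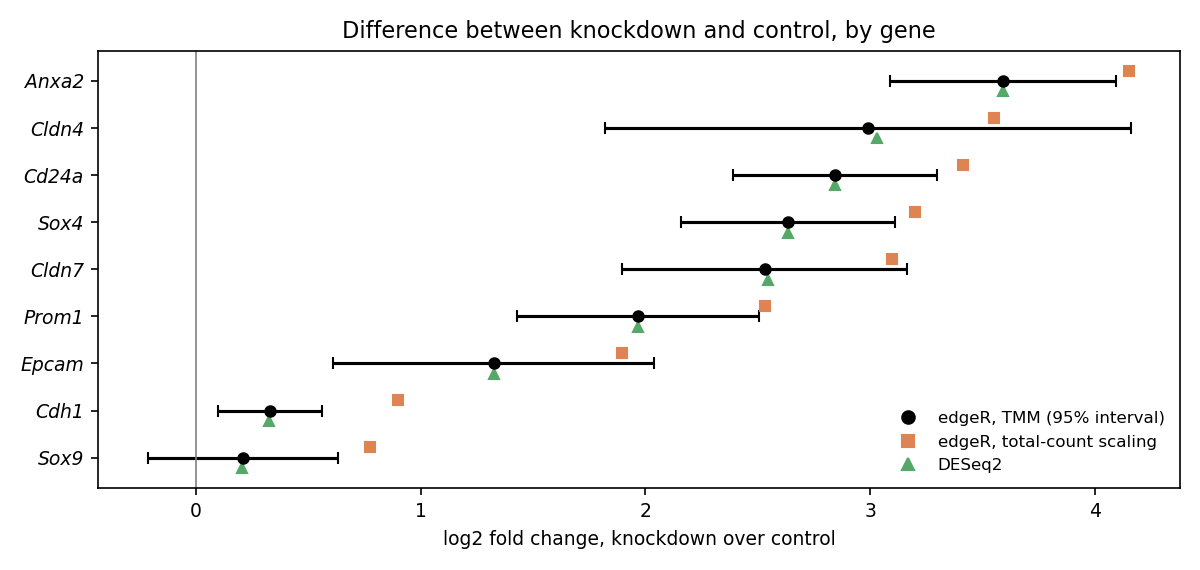
Log2 fold change of knockdown over control for each marker: black points are edgeR with TMM factors and a 95% interval (n = 4 per group), orange squares edgeR with total-count scaling and green triangles DESeq2. Sox9 is the only marker whose black interval includes 0, and total-count scaling moves every marker upward, Sox9 to 0.78.

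The scale of the libraries affects the small changes. Scaling by total counts alone moved the median gene by 0.567 (log2), and 63.9% of genes were then higher in the knockdown. On that scale all 9 markers were higher, with Sox9 at 0.78 (adjusted p = 0.00483, edgeR) and Cdh1 at 0.90. All values here, unless total-count scaling is named, are set against the median gene. The authors' deposited table lists 7 of the 9 as significant, a mark that in that table also needs a log2 fold change of at least 1 in size. Sox9 (log2 fold change 0.20, adjusted p = 0.437) and Cdh1 (0.33, adjusted p = 0.0154) are not marked in the authors' deposited table, which gives 3.51 for Anxa2 and 1.25 for Epcam.

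Levels of different genes were compared as normalised CPM per kilobase of the length the authors list. In the controls the order was Cdh1 (18.8), Anxa2 (6.12), Cd24a (2.69), Sox9 (2.38), Epcam (0.601), Sox4 (0.273), Cldn7 (0.215), Prom1 (0.186) and Cldn4 (0.0833). Ranges over samples overlapped between Cd24a and Sox9, between Sox4 and Cldn7, between Sox4 and Prom1, between Cldn7 and Prom1 and between Prom1 and Cldn4. In the knockdown the order was Anxa2 (73.9), Cdh1 (23.6), Cd24a (19.3), Sox9 (2.75), Sox4 (1.70), Epcam (1.5), Cldn7 (1.26), Prom1 (0.733) and Cldn4 (0.694). Among neighbours in this order the ranges of Cdh1 and Cd24a, of Sox4 and Epcam, of Epcam and Cldn7 and of Prom1 and Cldn4 overlapped. Anxa2 lay below Cdh1 in every control and above it in every knockdown sample. Sox9, 4th of the 9 in both orders, overlapped Cd24a in the controls but lay below its lowest knockdown value (3.11 at most against 13.7 at least).

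Ratios of 2 transcripts within a sample do not depend on how libraries are scaled. These pairs were chosen after the values were seen and are described without a test. Sox4 counts were 0.0855 to 0.267 of the Sox9 counts in the controls and 0.513 to 0.843 in the knockdown samples. For Cldn7 over Cldn3, a claudin of duct cells and hepatocytes, the ratio was 0.00391 to 0.00574 in the controls and 0.0203 to 0.031 in the knockdown. Anxa2 stood at 0.0863 to 0.208 of S100a10, its binding partner, in the controls and at 0.891 to 1.30 in the knockdown. Anxa2 over Anxa5 was 0.0773 to 0.157 in the controls and 0.318 to 0.411 in the knockdown. E-cadherin over N-cadherin (Cdh1/Cdh2) was 0.322 to 0.415 in the controls and 0.521 to 0.656 in the knockdown, without overlap. Epcam over Krt19 overlapped, at 1.40 to 8.50 in the controls, where Krt19 had 2 to 23 counts, and 2.35 to 3 in the knockdown.

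**Figure D3:**
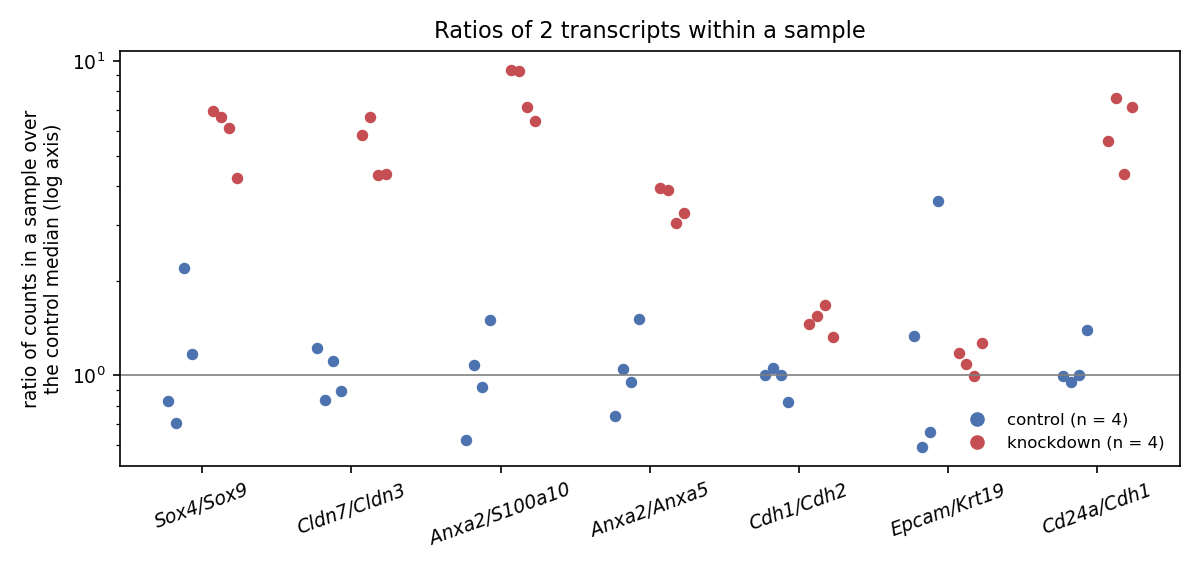
Ratio of the counts of 2 transcripts in each sample, divided by the median ratio of the 4 controls (log axis), for controls (blue) and knockdown (red). The groups are separate for each pair drawn except Epcam over Krt19, and Anxa2 over S100a10 reaches a median of 1.14 in the knockdown against 0.139 in the controls before division.

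Other duct markers changed in both directions. For this list and each later one, the shares among all genes tested were 29.5% higher and 27.8% lower. Of 18 tested, 10 rose, 4 fell and 4 did not pass, but 7 of the 18 met the count minimum only in the knockdown, and of the 11 that met it in both groups 4 rose and 4 fell. Ezr, the apical membrane linker ezrin, rose from 5.72 ± 2.00 to 23.8 ± 3.69 CPM (SD, n = 4 each), and Spp1, osteopontin, by 1.03 ± 0.15 (log2, SE), Bicc1, an RNA-binding regulator of duct tubules, by 1.61 ± 0.25 and the tetraspanin gene Tspan8 by 2.25 ± 0.33. The biliary keratin gene Krt7 rose by 1.03 ± 0.39 (log2, SE; adjusted p = 0.042, edgeR). Krt19, another keratin gene of ducts, held 0.288, 0.467, 1.18 and 0.0914 CPM in the controls, against 1.17, 0.872, 1.27 and 0.667 CPM in the knockdown, a difference of 0.98 ± 0.53 that did not pass (adjusted p = 0.137, edgeR). With total-count scaling Krt19 passed (1.55, adjusted p = 0.0204, edgeR). Onecut1, Lgr5 and Slc4a2 fell by 0.66, 0.65 and 0.28 on the log2 scale. Under total-count scaling 15 of the 18 were higher and 0 lower, and Slc4a2 was higher by 0.29, while Onecut1 (-0.09) and Lgr5 (-0.08) did not pass. Cftr and Sctr, which mark ducts in mouse liver, had 8 and 6 counts over the controls and 35 and 17 over the knockdown samples, and were not tested. The summed level of the 22 genes was 294 to 354 CPM in the controls, against 359 to 430 CPM in the knockdown. Spp1 (mean 39.9 to 81.2 CPM) and Ezr had the largest gains in that sum. Aqp1, the most abundant of the 22 in both groups (102 and 96.3 CPM), did not pass.

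Junction partners of the claudins and cadherins changed in both directions. Of 19 tight junction genes tested, 4 rose and 2 fell, with a median log2 fold change of 0.14. Both shares were below those of all genes tested (29.5% higher, 27.8% lower). Cxadr, an adhesion molecule that is also the receptor of many adenoviruses, rose from 93.2 ± 5.74 to 168 ± 12.1 CPM (SD, n = 4 each), and Cldn6, a claudin of embryonic epithelium, by 2.60 ± 0.42 (log2, SE) from 0.0594 CPM. Cldn6 met the count minimum of the filter only in the knockdown. Cldn12 fell by 0.85 ± 0.07 on the log2 scale and the polarity gene Pard3 by 0.54. Cldn3 held 61.5 ± 11 CPM in the controls, against 68.3 ± 8.63 CPM in the knockdown and did not pass (adjusted p = 0.344, edgeR). Of 15 adherens junction and desmosome genes, 6 fell and 3 rose (median -0.16). Afdn, Nectin2 and Nectin3 fell by 0.49, 0.53 and 0.34 on the log2 scale and Cdh2 by 0.30, while the desmosome gene Dsp rose by 0.81 and the catenin genes Ctnna1 and Jup by 0.26 and 0.22. Under total-count scaling 15 tight junction genes rose and 1, Cldn12, fell, and 10 of the adherens junction and desmosome genes rose and 0 fell. On that scale Pard3, Afdn, Nectin2, Nectin3 and Cdh2 stood at 0.03, 0.08, 0.04, 0.23 and 0.27 and none of these 5 passed.

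Genes of the Notch pathway, which acts above Sox9 in ducts, were mostly higher where they changed. Of 19 tested, 10 rose and 3 fell (median 0.56), and 15 rose and 0 fell under total-count scaling. Hes1, Heyl and Hey1 rose by 1.22 ± 0.14, 2.03 ± 0.24 and 1.88 ± 0.33 (log2, SE), and Lfng, which glycosylates Notch receptors, by 1.20 ± 0.13. Hey1 met the count minimum of the filter in all knockdown samples but not in all controls. The receptor gene Notch1 and the ligand gene Jag1 rose by 0.94 and 0.97, the DNA-binding partner gene Rbpj did not pass (0.01, adjusted p = 0.954, edgeR), and Rfng, Nrarp and Dll4 fell by 0.41, 0.69 and 0.55 on the log2 scale. Without control replicate 3, knockdown replicate 2 or knockdown replicate 3, 1 Notch gene fell. Of 7 other SOX genes tested, Sox12, of the same subgroup as Sox4, rose by 1.20 ± 0.30, and Sox5 and Sox6 fell by 0.68 and 0.96. Among all genes tested 29.5% rose and 27.8% fell, so the share of SOX genes that rose was lower and the share that fell was near. Under total-count scaling neither Sox5 nor Sox6 passed and 2 SOX genes rose.

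Most of the annexin genes and partner genes of annexin A2 that were tested rose. Of these 12, which include Plat, 9 rose and 0 fell, with a median log2 fold change of 1.54 (12 rose under total-count scaling). Anxa5 rose from 79.4 ± 8.59 to 288 ± 21.0 CPM (SD, n = 4 each), S100a11 by 3.05 ± 0.22 (log2, SE) and Anxa3 by 1.46 ± 0.13. S100a10, which forms a heterotetramer with annexin A2, rose by 0.62 ± 0.09. Plat, tissue plasminogen activator, which that complex binds at the cell surface, held 0.384, 0.374, 0.463 and 0.914 CPM in the controls, against 37.2, 38.7, 21.3 and 29.7 CPM in the knockdown. Its rise of 5.87 ± 0.29 (log2, SE) exceeded that of each annexin and S100 gene tested. Plat met the count minimum of the filter in all knockdown samples but not in all controls, so its entry depended on the group in which it was high. Anxa7, Anxa6 and Anxa11 did not pass.

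Some repressors of E-cadherin and mesenchymal genes were higher in the same samples. Of 7 tested, 4 rose and 1 fell. Vim rose from 31.8 ± 6.04 to 119 ± 19.8 CPM (SD, n = 4 each) and S100a4 by 2.10 ± 0.30 (log2, SE). Of the E-box repressors Zeb2 rose by 0.95 ± 0.21 and Snai1 by 0.90 ± 0.30, whereas Zeb1 and Snai2 did not pass. Snai1 met the count minimum of the filter in all knockdown samples but not in all controls. Fn1, fibronectin, fell by 0.59 on the log2 scale, a call that total-count scaling removed. Without control replicate 4, 2 of these genes fell.

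**Figure D4:**
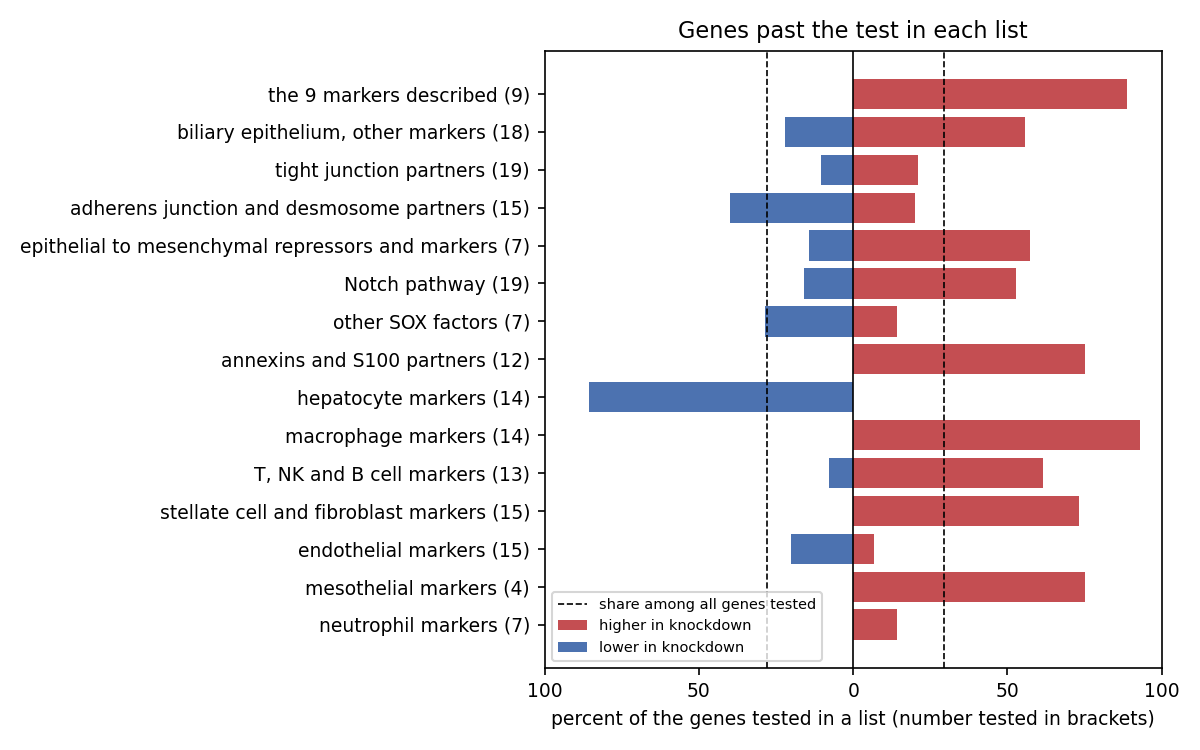
Percent of the tested genes of each list that were higher (red, to the right) or lower (blue, to the left) in the knockdown, with the number tested in brackets and the share among all genes tested as dashed lines (29.5% higher, 27.8% lower). Of the 15 lists drawn, those of tight junction, adherens junction, other SOX, hepatocyte, endothelial and neutrophil genes stay short of the dashed line for higher genes, and hepatocyte, adherens junction and other SOX genes pass that for lower genes.

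Markers of other cells moved in the same samples. Of 14 macrophage markers tested 13 rose, with a summed level of 768 to 962 CPM in the controls, against 1956 to 2325 CPM in the knockdown. Of 15 stellate cell and fibroblast markers 11 rose (253 to 307 against 628 to 1077 CPM). Col3a1 (mean 27.8 to 246 CPM), Col1a1 (12.5 to 128 CPM) and Col1a2 (20.3 to 116 CPM) had the largest gains in that sum. Of 13 lymphocyte markers 8 rose and 1, Cd4, fell (20.4 to 35.9 against 48.6 to 63.3 CPM). Of the 13 lymphocyte markers 4 met the count minimum only in the knockdown, and of the 9 that met it in both groups 6 rose and 1 fell. Of 15 endothelial markers 3 fell and 1 rose (492 to 583 against 319 to 593 CPM), and 8 fell without knockdown replicate 1. The direction turned with total-count scaling, under which 4 endothelial markers rose and 0 fell. None rose without control replicate 1, control replicate 3, knockdown replicate 1 or knockdown replicate 2, and 2 rose without knockdown replicate 3. Of 14 hepatocyte markers 12 fell (89330 to 116992 against 67990 to 89000 CPM), and with total-count scaling 9 fell and 2 rose. Their part in the rise of Anxa2, Cd24a and Sox4 was not tested. Mesothelium shares Krt19 and other epithelial genes with ducts. Of its defining markers Msln had 40 counts over the controls and 54 over the knockdown samples, Upk3b 30 and 47, and Wt1 12 and 13. With TMM factors, none had a higher mean in the knockdown, and they were not tested. The direction of such small differences depends on the scale, and values under total-count scaling are not given for them. Control and knockdown means were 0.510 and 0.431 CPM for Msln, 0.385 and 0.371 for Upk3b and 0.148 and 0.0991 for Wt1. Krt8 and Krt18, which hepatocytes also make, took most of the summed level of that list (297 to 375 against 990 to 1104 CPM), and with Lrrn4 were the 3 of its 4 tested genes that rose. Of these 4 tested genes 2 met the count minimum only in the knockdown, and the 2 that met it in both groups rose. No gene of any of these lists was at 0 in all samples. Of 7 neutrophil markers 1, Csf3r, rose (4.37 to 12.0 against 10.6 to 19.2 CPM), or 2 without knockdown replicate 3.

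The genes with the most similar profile differed from marker to marker. Likeness was measured as the root mean square difference of log2(CPM + 0.5), each gene centred on its own mean. The 12254 candidates were tested genes outside the markers with a mean of at least 1 CPM and an established symbol, so lower genes were left out. The added 0.5 CPM compresses the changes of low genes, so a near gene can have another fold change: Cldn7 rose by 2.53 and Nfe2l2 by 1.33 (log2), and Anxa2 by 3.59 and Bmp8b by 5.13. Over 8 samples in 2 groups that differ widely, the distance mostly follows the size of the group difference. It cannot show shared control or a shared cell source, and neither was tested. Nearest to Cldn7 lay Nfe2l2, which encodes NRF2 (0.096), and Cmtm7 (0.108), and nearest to Cd24a lay Srxn1 (0.144) and Parm1 (0.161). Prom1 lay nearest to Fcgr3, an Fc receptor of myeloid cells (0.109), and Ppp1r18 (0.11), and Cdh1 to Yeats2 (0.066) and Smad3 (0.078). Sox4 was nearest to Mrc2, a collagen receptor of fibroblasts (0.113), and Smcp (0.188), Epcam to Scara3 (0.174) and Obsl1 (0.189), Sox9 to Aph1b (0.14) and Zfp748 (0.146), Cldn4 to Cdc45 (0.167) and St6galnac2 (0.172), and Anxa2 to Slc22a27 and Bmp8b (0.182 each). Among the markers themselves Prom1 and Cldn7 were the closest pair (0.248) and Sox9 and Anxa2 the farthest (1.74). Within the knockdown group, replicate 4 was lowest for 5 of the 9 markers and replicate 3 for 3, while replicates 1 and 2 were each highest for 4.

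Eif4ebp3 itself held 289, 216, 204 and 49.3 CPM in the controls, against 9.62, 13.9, 37.2 and 19.5 CPM in the knockdown samples. Control replicate 4, which held least Eif4ebp3 of the controls and was the one control with a D in its sample code, was the highest control for 3 of the 9 markers, as was control replicate 3. Without control replicate 4 Anxa2 rose by 3.82 and Cd24a by 2.93 on the log2 scale, against 3.59 and 2.84 with all samples. Epcam, Prom1 and Cdh1 rose by less, 1.201, 1.955 and 0.277 against 1.325, 1.966 and 0.329, while the differences of the other markers were larger.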

How the data were processed

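Liver RNA depleted of ribosomal RNA was sequenced from 8 mice. The mm10 build and the tools SAMtools 1.9, GATK 3.8, Bowtie2 2.2.9 and fastp 0.19.5 are listed per the submitters' processing notes, without roles. Neither the counting program nor its annotation and strand setting is named in the sources used here. Deposited were the authors' estimated counts (expected counts, not normalised) for 56181 entries. These were rounded, since 10.9% are not whole, and the 645 assembled loci without a gene name, 0.676 to 1.08% of a sample, were left out. The authors' deposited comparison gives a fold change (a ratio), its log2 value, a p-value and an adjusted p-value per gene, per the file headers, with unstated settings. Samples held between 24371461 and 32389444 counts. The labels do not tie samples to litters or batches, and p-values cover only the spread between these samples. Replicates differed by more than counting error (lowest chi-square per degree of freedom 9.64).

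In R 4.3.3 with edgeR 4.0.16, filterByExpr kept 15375 genes (0.388 CPM, or 10 counts at the median library), and TMM factors, glmQLFit and glmQLFTest were used with Benjamini-Hochberg adjustment over these genes and a threshold of 0.05. The SE is the log2 fold change divided by the root of the F statistic. Positions are from GENCODE M21 (mm10), promoters from RefSeq (GRCm38.p6). DESeq2 1.42.0 and limma 3.58.1 served as alternatives, with other factors, filters, covariates and samples.

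The markers and 14 lists of 204 other symbols were chosen with earlier results of these data known. Named were the markers, and of the other lists up to 4 changed genes of smallest p and those that changed against most; of the cell type lists mainly counts are given. Krt7, Krt19, Cldn3, Cdh2, S100a10, S100a4, Snai1, Notch1, Jag1, the genes near or under the detection limit and those said not to pass were chosen after their values were seen. The comparison of protein sequences that had been planned was not run. Some members of the other lists are counted but not reported by name here.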

Additional observations from a re-analysis of the deposited data

How the results depend on the processing

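The number of markers that changed was 8 under DESeq2, limma-voom, RLE or upper-quartile factors, no filter, a covariate for the C or D in sample codes, the samples coded C alone and with the assembled loci kept. It was 9 with total-count scaling and 7 with a minimum mean of 1 CPM, which removed Cldn4, and 7 to 8 without single samples. No marker changed sign in any alternative. Over the alternatives the log2 fold change ranged from 3.42 to 4.15 for Anxa2, 2.69 to 3.42 for Cd24a, 2.50 to 3.20 for Sox4, 2.61 to 3.55 for Cldn4, 1.15 to 1.9 for Epcam and 0.04 to 0.78 for Sox9. With total-count scaling 9831 genes were higher and 1187 lower, against 4528 and 4272 with TMM factors. The replicate block left 8 markers called (Anxa2 3.61, Epcam 1.38) and 8482 genes changed against 8800. Deviations of same-numbered samples correlated at -0.175, -0.0328, 0.0594 and 0.174, and 1 of the 4 controls correlated best with its own number. With 4 samples per group these values cannot decide whether same-numbered samples shared more than a number. Low counts limit Cldn4, Cldn7 and Krt19, and with TMM factors the Krt19 and Sox9 differences could not be separated from the spread between samples.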
